A study of Mus musculus with 12 samples.

Results

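The genes described here are 39 genes that interferons are known to induce, other than the Oas family, chosen by name and followed across the 4 groups of a spleen expression study. Of the 39, 37 had at least 1 probe set with a single gene symbol, and all 37 passed the filter on low signal, out of 12326 genes tested and 18193 genes with such a probe set. Isg15 and Ifi44 had none and are not analysed here. Gene expression was measured on 3' microarrays in 12 BALB/c spleens, 1 mouse per array: 3 from Il1rn-deficient mice (ko) at 4 months, 3 from wild-type mice (wt) at 4 months, 3 from ko mice at 1 month and 3 from wt mice at 1 month. Il1rn codes for a soluble antagonist that keeps IL-1 from its receptor, and its loss on this background leads to spontaneous arthritis. The study sought arthritis-related genes that differ by phase. The labels do not give the allele, the sex of the mice or a treatment.

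Type I interferons bind a cell surface receptor that activates the Janus kinases Jak1 and Tyk2. A complex that holds Stat2 and Irf9 then binds the interferon-stimulated response element (ISRE) in the promoters of target genes. The induced proteins sense viral RNA and DNA, block viral replication, load antigens, restrict bacteria inside cells and feed back on the pathway. The spleen holds plasmacytoid dendritic cells, which secrete type I interferon, beside lymphocytes, macrophages, neutrophils and red cell precursors that respond to it.

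Values are MAS5 signals on a linear scale, with each array at a 2% trimmed mean of 500. Differences are log2 of the signal plus an offset of 32, from a limma model with 4 group means, and a gene was called when its p, adjusted by Benjamini and Hochberg's method over all probe sets tested, was under 0.05. Where a gene had several probe sets, the one with the highest mean over the 12 arrays stood for it. Il1rn was lower in ko spleens at 4 months (adjusted p 0.0034) and 1 month (adjusted p 0.0403) on probe set 1451798_at, with 40.8, 10.1 and 14.8 in ko at 4 months, against 188, 161 and 278 in wt at 4 months, and 23.6, 40.6 and 5.64 in ko at 1 month, against 164, 143 and 121 in wt at 1 month. The genotypes were also apart on a further Il1rn probe set and overlapped on the remaining one. The arrays fell into 2 sets by their highest signal, which the labels do not explain. In the low set it was 33427 to 37921, and these arrays were ko at 4 months replicate 2, wt at 4 months replicate 3, all 3 of ko at 1 month and wt at 1 month replicate 3. In the high set it was 51247 to 68987. Where the low set has 1 array of a group, differences within it are given below with no test. At 1 month the sets therefore almost follow genotype, with a single wt array among the low ones. In wt at 4 months replicate 2 the summed signal of 8 pancreas markers reached 135709, against 1312 to 2588 in the ko arrays and 1453 to 2007 in the other wt arrays, and the calls of Isg20, Irf7 and Slfn4 between the genotypes at 4 months held without this array. In whole spleen, fewer cells of a type and less RNA per cell cannot be told apart.

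The promoters of several of these genes carry the ISRE core. In RefSeq promoters of the mouse build GRCm38.p6, the letters GAAANNGAAA were searched on both strands in the 250 bases before each gene's start, with overlapping matches counted. They occurred in 11 of the 29 listed genes with a promoter sequence (37.9%), against 936 of 27025 genes (3.46%). The core TTCNNNGAA, which Stat dimers bind, occurred in 5 of the 29 (17.2%), against 8.13% of genes. The 5 stretches below are shown because Rsad2, Ifit1, Ifit3, Stat2 and Bst2 are among the genes whose levels the comparisons turn on. Rsad2 came from the naming rule and the other 4 were added after their values were seen. Each runs 5′ to 3′ on the gene's own strand, with the ISRE core matches in capitals. Rsad2 lies at chr12:26456538-26456597 (minus strand), Ifit1 at chr19:34640779-34640838 (plus strand), Ifit3 at chr19:34583382-34583441 (plus strand), Stat2 at chr10:128270251-128270310 (plus strand) and Bst2 at chr8:71537562-71537621 (minus strand).
Rsad2: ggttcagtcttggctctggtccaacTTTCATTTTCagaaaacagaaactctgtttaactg
Ifit1: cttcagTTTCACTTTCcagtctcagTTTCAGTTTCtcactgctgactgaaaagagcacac
Ifit3: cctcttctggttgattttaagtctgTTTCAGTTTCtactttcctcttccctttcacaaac
Stat2: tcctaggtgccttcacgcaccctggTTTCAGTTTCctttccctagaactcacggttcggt
Bst2: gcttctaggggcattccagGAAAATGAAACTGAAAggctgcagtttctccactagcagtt
The match begins 120 bases before the start of Rsad2 and 222 bases before that of Stat2. Ifit1 has a pair of matches, at 104 and 85 bases, and Ifit3 has one at 122 bases with a further one at 156 bases outside the stretch. In Bst2 a pair of overlapping matches at 130 and 124 bases forms a run of 3 GAAA units. Isg20, Irf7, Slfn4 and Samd9l, which were called in genotype comparisons, had no such match in the window, which says only that these letters are not in it.

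At 4 months, Isg20, Irf7 and Slfn4 were higher in ko spleens, by 2.22-fold, 2.04-fold and 2.30-fold, and no listed gene was called lower. These were 3 of 37 genes, against 2.48% of all genes tested called higher and 0.479% called lower. In 27 of the 37 the difference was above 0. Their median log2 difference was 0.28, against 0.02 over all genes tested. In 18 of the 37 every ko value lay above every wt value, which 13.3% of all genes showed, and in 4 every ko value lay below, which 10.5% showed. At an unadjusted p under 0.05, 13 of the 37 were higher and 2 lower, against 10.6% and 6.13% of all genes. With the array set as a block 6 of the 37 were called higher and 0 lower. The shares of all genes above belong to the fit without a block, and that of the block fit is not given here.

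**Figure D1:**
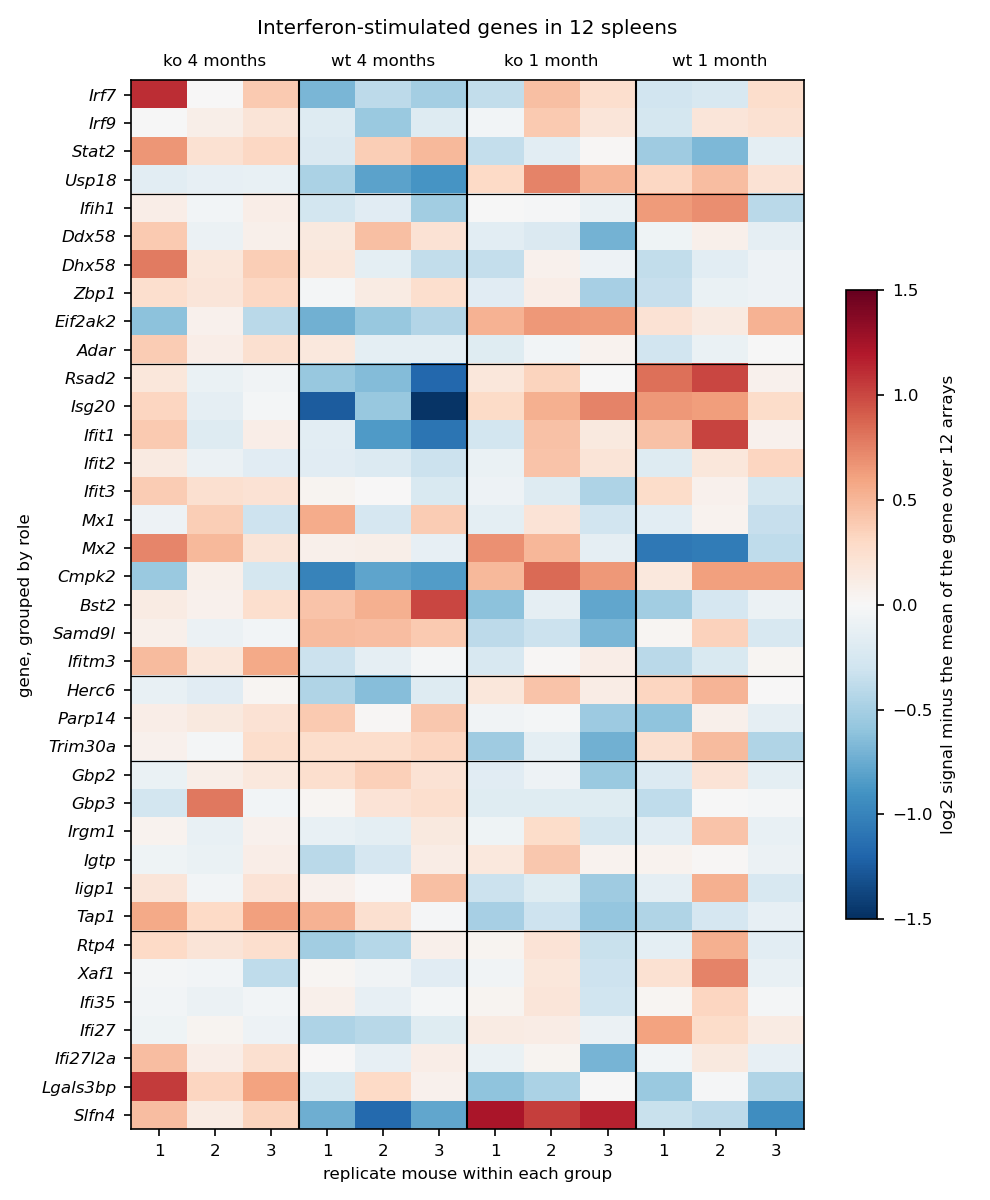
Heat map of the 37 genes, grouped by role down the page, in the 12 spleens across it (ko at 4 months, wt at 4 months, ko at 1 month, wt at 1 month), coloured by log2 signal minus the gene's mean over 12 arrays. Among the regulators and antiviral effectors, Irf7, Usp18, Rsad2, Isg20, Ifit1 and Cmpk2 are bluest in wt at 4 months next to ko at 4 months, Slfn4 is darkest red in ko at 1 month, and Bst2 and Samd9l run the other way, redder in wt than in ko at 4 months.

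Among the regulators, Irf7 is the transcription factor that amplifies type I interferon production. Irf7 measured 3064, 1417 and 1859 in ko at 4 months, against 866, 1068 and 978 in wt at 4 months. All 3 ko values lay above the wt values, and replicate 1 of ko was well above the other ko mice. The log2 difference was 1.03 (SE 0.25, adjusted p 0.0413). It was no longer called without ko replicate 1 (0.73, adjusted p 0.197), ko replicate 3 (adjusted p 0.12), wt replicate 1 (adjusted p 0.144) or wt replicate 3 (adjusted p 0.11). It was 0.52 between the 1 ko and 1 wt mouse of the low array set, and 1.28 within the high set (adjusted p 0.048).

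The other regulators did not pass the test at 4 months. Usp18, the protease that removes Isg15 from proteins and damps the type I receptor, measured 1067, 1092 and 1101 in ko, against 849, 670 and 630 in wt. The ko mice were nearly alike and all above wt, with a log2 difference of 0.59 (SE 0.15, adjusted p 0.0554). Irf9, the DNA-binding partner of Stat2, measured 2458, 2636 and 2835 in ko, against 2159, 1671 and 2167 in wt, also without overlap (0.41, adjusted p 0.235). Stat2 itself overlapped between the genotypes (0.18, adjusted p 0.716).

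Among the antiviral effectors, Isg20 is an exonuclease that degrades viral RNA. Isg20 measured 9601, 6963 and 7510 in ko at 4 months, against 3207, 5144 and 2741 in wt at 4 months. The groups did not overlap, and the lowest ko value exceeded the highest wt value, that of the array with pancreas RNA. The log2 difference was 1.15 (SE 0.21, adjusted p 0.00821). The call held when each of the 6 mice was left out, with differences of 0.96 to 1.41 and adjusted p up to 0.0468. It was 1.335 between the 1 ko and 1 wt mouse of the low array set. Within the high set, with 2 mice of each genotype, it was 1.06 and no longer called (adjusted p 0.0571).

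Rsad2 encodes viperin, an enzyme that makes a chain-terminating nucleotide against RNA viruses. On the probe set that stood for it, 1436058_at, Rsad2 measured 20551, 17103 and 17698 in ko at 4 months, against 12316, 11629 and 8062 in wt at 4 months. Every ko value was above every wt value, yet the log2 difference of 0.81 (SE 0.21) missed the threshold (adjusted p 0.061). On probe set 1421008_at Rsad2 measured 7990, 6474 and 5583 in ko, against 2754, 3368 and 2474 in wt. The difference there was 1.21 (SE 0.16, adjusted p 0.00104), and on 1421009_at it was 0.92 (SE 0.17, adjusted p 0.0108). The call for Rsad2 thus depended on which probe set stood for it, while the direction was the same on all 3.

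Of the other antiviral effectors, none passed the test at 4 months. Cmpk2, a mitochondrial nucleotide kinase whose start lies close to that of Rsad2 on the opposite strand, measured 624, 982 and 773 in ko, against 449, 524 and 506 in wt, with no overlap (0.63, SE 0.18, adjusted p 0.0836). Ifitm3, a membrane protein that blocks viral entry, measured 13409, 10878 and 14359 in ko, against 7700, 8825 and 9469 in wt, with no overlap (0.57, SE 0.15, adjusted p 0.0722). Ifit1, which binds viral RNA that lacks host cap methylation, measured 702, 459 and 570 in ko, against 472, 278 and 229 in wt. Its groups overlapped at one mouse of each genotype (0.80, SE 0.27, adjusted p 0.15). Ifit3 and Ifit2 had all ko values above wt, with differences of 0.34 and 0.19.

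A few antiviral genes had lower values in ko at 4 months. Bst2, or tetherin, which holds budding virions at the membrane and marks mouse plasmacytoid dendritic cells, measured 625, 599 and 691 in ko, against 785, 843 and 1179 in wt. Every ko value was below every wt value, with a log2 difference of -0.51 (SE 0.20, adjusted p 0.213). Samd9l, which restricts poxviruses and cell growth, measured 4164, 3698 and 3822 in ko, against 5505, 5440 and 5190 in wt. The groups did not overlap, but the difference of -0.46 (SE 0.15) did not pass at 4 months alone (adjusted p 0.134). Mx1, a GTPase against influenza virus that many inbred strains carry in a defective form, measured 169, 243 and 139 in ko, against 281, 147 and 246 in wt, with full overlap (-0.24, adjusted p 0.707).

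**Figure D2:**
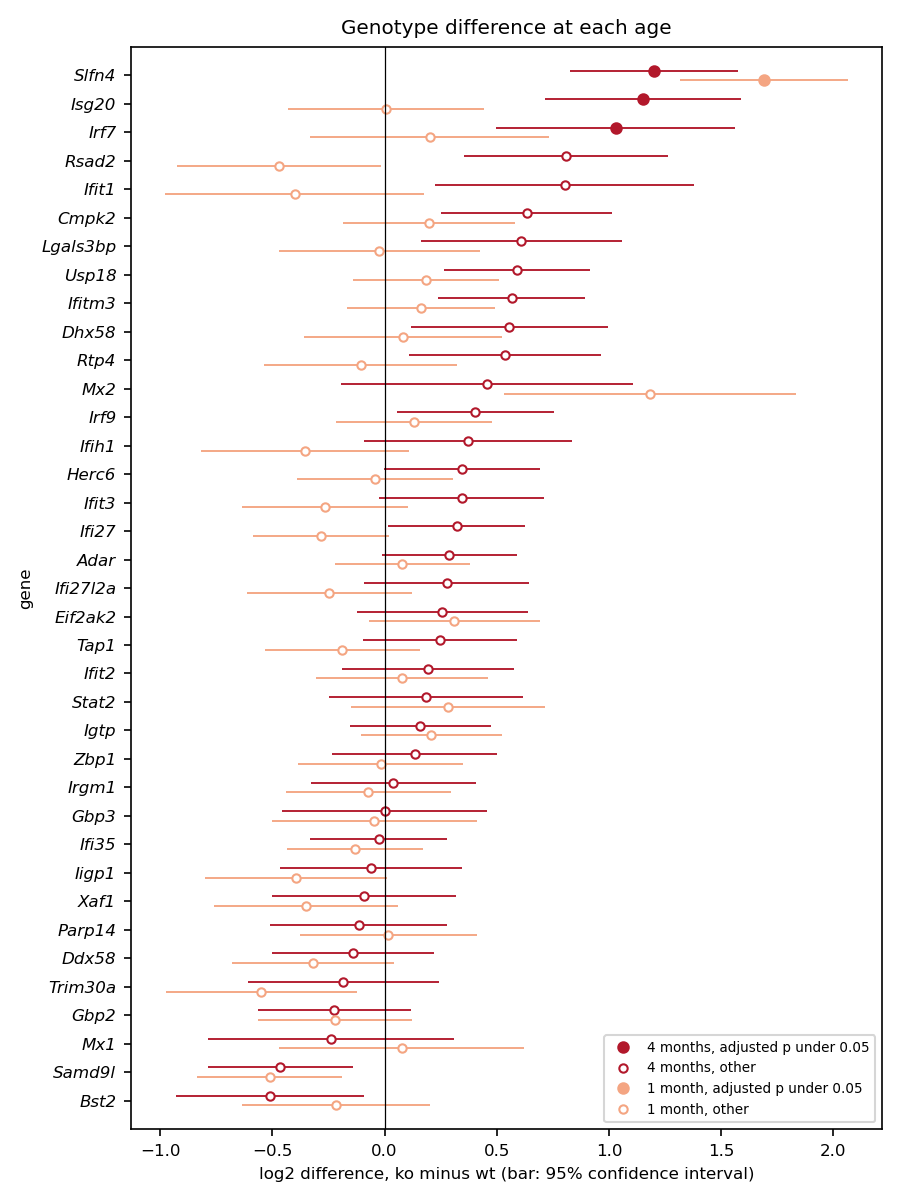
Log2 difference, ko minus wt, of each of the 37 genes (points) with its 95% confidence interval (bars), at 4 months in dark red and at 1 month in light orange, ordered by the difference at 4 months. Filled points passed an adjusted p under 0.05: Slfn4, Isg20 and Irf7 at 4 months and Slfn4 at 1 month.

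None of the 6 sensors was called at 4 months, and 5 of the 6 had a difference above 0, with a median of 0.27. Ifih1, or MDA5, which detects long viral RNA, measured 2177, 1964 and 2174 in ko, against 1670, 1804 and 1405 in wt, with no overlap (0.37, adjusted p 0.434). Dhx58, or LGP2, its helicase partner, measured 534, 341 and 395 in ko, against 340, 266 and 224 in wt (0.56, adjusted p 0.193). The lowest ko and the highest wt value of Dhx58 were nearly equal. On the probe sets that stood for them, Ddx58, or RIG-I (-0.14, adjusted p 0.741), and the nucleic acid sensor Zbp1 (0.13, adjusted p 0.764) overlapped. So did the kinase Eif2ak2, or PKR, which halts translation (0.26, adjusted p 0.521), and the RNA-editing enzyme Adar (0.29, adjusted p 0.337). Some further probe sets did not overlap. All ko values lay above wt on both further Eif2ak2 probe sets, with 250, 221 and 270 against 166, 182 and 202, and 259, 306 and 280 against 179, 247 and 232. They also did on a further Adar probe set, narrowly, with 1900, 1359 and 1774 against 799, 1351 and 1111. On a further Ddx58 probe set they lay below, with 305, 279 and 308 against 492, 361 and 382.

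The immunity-related and guanylate-binding GTPases, which act on vacuoles of intracellular microbes, lay near 0. Over Gbp2, Gbp3, Irgm1, Igtp, Iigp1 and the peptide transporter Tap1, the log2 differences at 4 months ran between -0.22 and 0.25 with a median of 0.02, and none was called. At an unadjusted p under 0.05 none of the 6 was past the threshold in either direction. On the probe sets that stood for them, the ubiquitin-like ligase Herc6 had all ko values above wt (0.34, adjusted p 0.321) and the mono-ADP-ribosyltransferase Parp14 overlapped (-0.12, adjusted p 0.819). Trim30a, a brake on Toll-like receptor signalling, had all ko values below wt on its own (-0.18, adjusted p 0.712). On a further Trim30a probe set the genotypes overlapped, with 1908, 1968 and 2048 in ko, against 3307, 1712 and 2048 in wt.

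Among the remaining induced genes Slfn4, a Schlafen gene of myeloid cells, was called at both ages. Slfn4 measured 1546, 1213 and 1404 in ko at 4 months, against 655, 478 and 631 in wt at 4 months. At 1 month Slfn4 measured 2627, 2319 and 2499 in ko, against 870, 840 and 566 in wt. No ko value came near a wt value at either age. The log2 difference was 1.20 at 4 months (SE 0.18, adjusted p 0.00187) and 1.69 at 1 month (SE 0.18, adjusted p 0.000121), which is 3.23-fold. Both calls held when each mouse was left out, with differences of 1.07 to 1.29 at 4 months and 1.502 to 1.798 at 1 month. Within the array sets the Slfn4 difference at 4 months was 0.91 between the 1 ko and 1 wt mouse of the low set and 1.35 in the high set (adjusted p 0.0223), and at 1 month it was 2.07 between 3 ko mice and 1 wt mouse of the low set.

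Neutrophil markers moved in the same direction as Slfn4 between the genotypes. Of the 15 markers listed, 14 had a probe set, and 12 of these were called higher in ko at each age. Over all genes 2.48% were called higher at 4 months and 0.365% at 1 month. The summed signal of the neutrophil markers was 53968 to 71950 in ko at 4 months, against 11211 to 16002 in wt at 4 months, and 129273 to 161217 in ko at 1 month, against 45149 to 55200 in wt at 1 month. Of the markers with a probe set, Prtn3 had a group mean under 100 in wt at 4 months and no other marker did in any group. With age in ko 12 of the 14 were called lower and 1 higher, against 10.9% and 15.7% of all genes, and Slfn4 also fell. With age in wt 11 were called lower and 1 higher, against 11.5% and 12.6%, while Slfn4 overlapped between the ages and was not called. The part of neutrophils in the Slfn4 difference was not tested.

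Red cell precursor markers ran higher in ko at 4 months, as did Isg20, Rsad2 and the neutrophil markers. Of 11 red cell precursor markers 9 had a probe set and 8 were tested. At 4 months 7 were called higher in ko, against 2.48% of all genes. At 1 month none of the markers was called in either direction by limma, and 1 was higher at an unadjusted p under 0.05, against 7.47% of all genes. Their summed signal was 69865 to 80986 in ko at 4 months, against 31968 to 55039 in wt at 4 months, and 92921 to 106163 in ko at 1 month, against 90818 to 118958 in wt at 1 month. Hba-a1 had a group mean under 100 in all groups but wt at 1 month. Markers of plasmacytoid dendritic cells, of which 9 of 10 had a probe set, ran lower in ko at 4 months, with a summed signal of 7445 to 8829, against 11963 to 14474 in wt, and Ccr9 and Spib were called lower. Without Klk1, which measured 3183 in the array with pancreas RNA, against 319.7 and 442 in the other wt arrays at 4 months, the sums were 7194 to 8537 in ko and 11291 to 12648 in wt. Spib was the largest part of these sums, with 4733, 3808 and 3421 in ko, against 6190, 6508 and 6001 in wt. In 6 of the 9 markers every ko value lay below every wt value, which 10.5% of all genes showed, while Tcf4, Pacsin1 and Clec10a overlapped. Of 9 B cell markers 7 also had a difference below 0 at 4 months. The part of these cells in the differences was not tested.

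**Figure D3:**
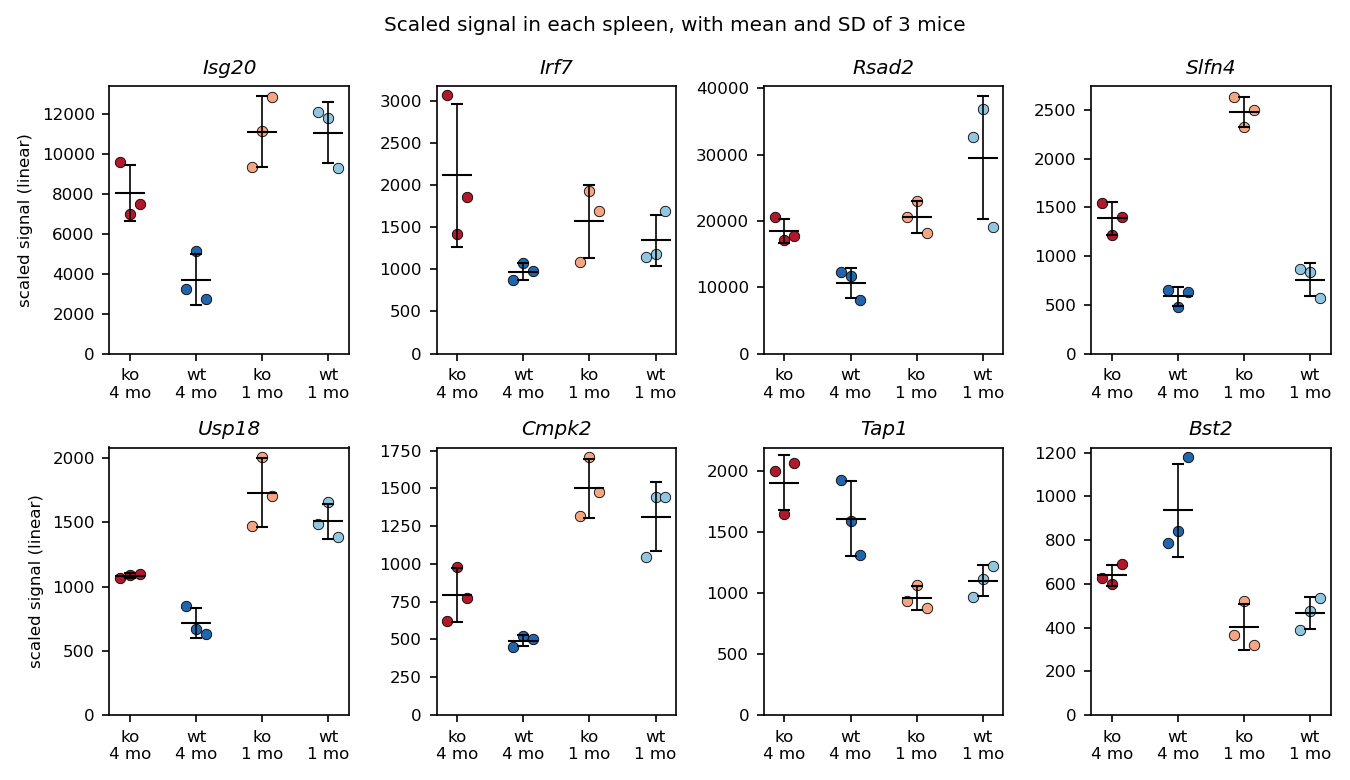
Scaled signal of 8 of the genes in each of the 12 spleens (points, linear axes from 0), with the mean (long bar) and SD (short bars) of the 3 mice in each group, ordered ko at 4 months, wt at 4 months, ko at 1 month, wt at 1 month. Isg20 and Rsad2 stand lowest in wt at 4 months, Slfn4 is higher in ko at both ages, and Tap1 and Bst2 are higher at 4 months than at 1 month.

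Of the 17 genes with several tested probe sets, 11 had the same sign on all of them at 4 months, and the probe sets of Ifi35, Iigp1, Parp14, Stat2, Xaf1 and Zbp1 disagreed. At 1 month 8 of the 17 had the same sign on all, and the probe sets of Cmpk2, Dhx58, Eif2ak2, Herc6, Ifi35, Tap1, Trim30a, Xaf1 and Zbp1 disagreed. For age 15 of the 17 had the same sign on all in each genotype, with Dhx58 and Xaf1 the exceptions.

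The last genes of the list did not pass the test at 4 months. Lgals3bp, a secreted glycoprotein, measured 3108, 1878 and 2276 in ko, against 1271, 1848 and 1556 in wt, a narrow separation (0.61, SE 0.21, adjusted p 0.159). Rtp4, a chaperone of membrane receptors, measured 2234, 2063 and 2152 in ko, against 1247, 1337 and 1910 in wt, with no overlap (0.54, SE 0.20, adjusted p 0.2). Ifi27 and Ifi27l2a, small mitochondrial membrane proteins, had all ko values above wt, with differences of 0.32 and 0.28. Ifi35 and the apoptosis factor Xaf1 overlapped, at -0.03 and -0.09.

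At 1 month, Slfn4 was the only listed gene called between the genotypes. That is 1 of 37, against 0.365% of all genes tested called higher and 0.252% called lower. At an unadjusted p under 0.05, 2 of the 37 were higher and 3 lower, against 7.47% and 9.41% of all genes. The median log2 difference of the 37 was -0.04, against -0.02 over all genes, and 16 were above 0. Centring each array on its median moved the median of all genes to 0.14 and that of the listed genes to 0.12. The sign of the list's median thus moved together with that of all genes, and the list stayed slightly below all genes. The sign of the list's median also depends on single mice, with medians of -0.14 to 0.07 when each was left out. In 2 genes every ko value lay above every wt value, which 8.97% of all genes showed, and in 2 every ko value lay below, which 11.7% showed.

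Isg20, Irf7, Usp18 and Cmpk2, whose genotypes did not overlap at 4 months, overlapped at 1 month. Isg20 measured 9353, 11127 and 12865 in ko at 1 month, against 12069, 11797 and 9295 in wt at 1 month, a log2 difference of 0.01 (95% confidence interval -0.43 to 0.44, adjusted p 0.993). Irf7 measured 1084, 1930 and 1686 in ko, against 1148, 1186 and 1693 in wt (0.20, interval -0.33 to 0.73, adjusted p 0.726). The differences of Usp18 and Cmpk2 were 0.19 and 0.20.

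Rsad2 measured 20591, 23074 and 18222 in ko at 1 month, against 32642, 36887 and 19157 in wt at 1 month. Replicates 1 and 2 of wt were high and replicate 3 lay among the ko mice. The log2 difference was -0.47 (SE 0.21, adjusted p 0.302). Within the low array set, where replicate 3 is the only wt mouse, it was 0.10, so its direction turned. On the other probe sets of Rsad2 it was -0.26 and -0.09.

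Mx2, a GTPase related to Mx1, measured 169, 143 and 81.1 in ko at 1 month, against 27.2, 28.1 and 63.5 in wt at 1 month. All ko values were above wt, at low signal, with a log2 difference of 1.18 (SE 0.31, adjusted p 0.0972). Samd9l measured 3005, 3135 and 2431 in ko, against 4018, 5015 and 3330 in wt, all ko values below wt (-0.51, SE 0.15, adjusted p 0.134). Trim30a measured 1762, 2319 and 1547 in ko, against 3030, 3566 and 1863 in wt (-0.55, SE 0.20, adjusted p 0.208). On a further Trim30a probe set the genotypes overlapped and the sign differed, with 1634, 1816 and 1412 in ko, against 1306, 2137 and 1446 in wt. On the probe sets that stood for the genes, replicate 3 of wt was again the wt mouse nearest to ko for all 3. Without that mouse 6 listed genes were called in place of 1, with 2 higher and 4 lower. Among these were Mx2 at 1.41 (adjusted p 0.0248), Rsad2 at -0.76 (adjusted p 0.0269), Samd9l at -0.66 (adjusted p 0.0241) and Trim30a at -0.82 (adjusted p 0.0161). That mouse is also the single wt array of the low set at 1 month, and leaving it out compares ko arrays of the low set with wt arrays of the high set. The share of all genes called without that mouse is not given here, so the 6 cannot be set against it.

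Over both ages in 1 comparison, 4 of the 37 genes were called higher in ko and 1 lower, against 3.89% and 2.45% of all genes. The median difference was 0.14, against 0.00 over all genes, and fell to 0.07 without ko at 1 month replicate 2 and 0.08 without wt at 1 month replicate 3. With each array centred on its median it was 0.23, against 0.09 over all genes. At an unadjusted p under 0.05 10 were higher and 3 lower, against 13.0% and 11.1%. Slfn4 was higher by a log2 of 1.45 (SE 0.12, adjusted p 4.99e-06), Mx2 by 0.82 (SE 0.22, adjusted p 0.0399), Isg20 by 0.58 (SE 0.15, adjusted p 0.0337) and Usp18 by 0.39 (SE 0.11, adjusted p 0.0479). Samd9l was lower, at -0.49 (SE 0.11, adjusted p 0.0182), with every ko mouse below every wt mouse of its age. Slfn4 kept its call in each of the 12 fits that left out a mouse. Samd9l lost its call in 3 of these, without ko at 4 months replicate 3, ko at 1 month replicate 3 or wt at 1 month replicate 2, with adjusted p up to 0.0627. Isg20 lost its call in 7 of them, Mx2 in 9 and Usp18 in 10. Mx2 also lost its call with the array set as a block (0.76, adjusted p 0.0849). The count of called genes ran from 1, without ko at 4 months replicate 3 or wt at 1 month replicate 2, to 8, without wt at 1 month replicate 3. It was 2 without ko at 4 months replicate 1, wt at 4 months replicate 3, ko at 1 month replicate 2 or ko at 1 month replicate 3, and 3 without wt at 4 months replicate 1 or wt at 1 month replicate 1.

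Whether the genotype difference itself changed with age was tested as an interaction. On the probe sets that stood for the genes, limma called 0 of the 37, against 0.0568% of all genes. At an unadjusted p under 0.05, 9 of the 37 had a larger ko minus wt difference at 4 months and 0 a smaller one, against 6.58% and 2.80% of all genes. The median of the 37 was 0.27, against 0.04 over all genes. It was 0.17 without wt at 1 month replicate 2, against 0.05 over all genes, 0.14 with each array centred on its median, against -0.09, and 0.11 within the low array set, against 0.09. The largest values were 1.28 for Rsad2 (SE 0.30, adjusted p 0.218), 1.20 for Ifit1 (SE 0.39, adjusted p 0.382) and 1.15 for Isg20 (SE 0.29, adjusted p 0.259). On probe set 1421008_at the difference for Rsad2 was called, at 1.47 (SE 0.23, adjusted p 0.0278), and on 1421009_at it was 1.01 (SE 0.25, adjusted p 0.25). Without wt at 1 month replicate 3, 2 of the 37 were called, and without wt at 4 months replicate 2, 1 was.

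**Figure D4:**
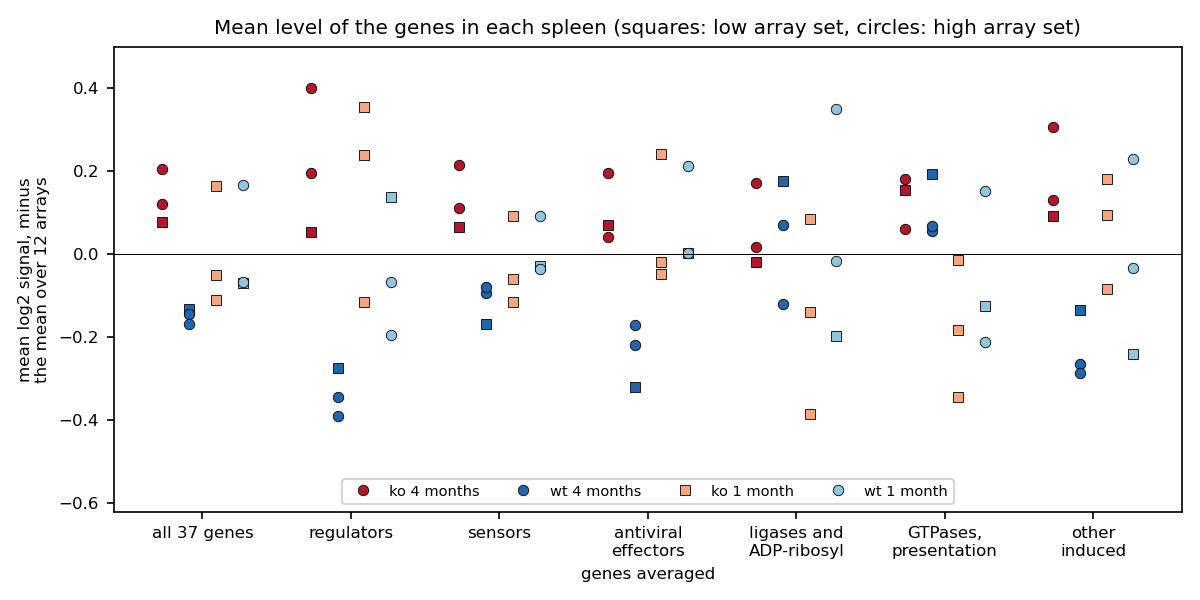
Mean log2 signal of all 37 genes, and of the genes of each role, in each spleen minus the mean over the 12 arrays, with squares for the low array set and circles for the high set, in the order ko at 4 months, wt at 4 months, ko at 1 month, wt at 1 month. Over all 37 genes the ko spleens at 4 months lie between 0.08 and 0.21 and the wt spleens at 4 months between -0.17 and -0.13, while the 1 month groups overlap.

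Averaged over the 37 genes, the log2 level relative to the mean of the 12 arrays was 0.21, 0.08 and 0.12 in ko at 4 months, against -0.14, -0.17 and -0.13 in wt at 4 months. At 1 month it was -0.05, 0.17 and -0.11 in ko, against -0.07, 0.17 and -0.07 in wt. The genotypes did not overlap at 4 months and overlapped fully at 1 month. The lowest ko value at 4 months belonged to the ko mouse of the low array set. By role, the 4 regulators were the furthest apart at 4 months, with 0.40, 0.05 and 0.20 in ko, against -0.39, -0.34 and -0.27 in wt. The 6 GTPase and antigen presentation genes overlapped at that age, with 0.06, 0.16 and 0.18 in ko, against 0.06, 0.07 and 0.20 in wt.

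With age, 12 of the 37 genes were called in wt spleens, 3 higher and 9 lower at 4 months than at 1 month. Over all genes tested, 12.6% were called higher and 11.5% lower. The median of the 37 was -0.09, against 0.08 over all genes. Its direction turned without wt at 1 month replicate 2, at 0.03 against 0.06 over all genes, and within the low array set, at 0.11 against 0.03. Without wt at 1 month replicate 3 it was -0.17, and it was -0.04 to -0.06 without any one of the wt mice at 4 months. At 4 months 8 genes lay wholly above their 1 month values and 9 wholly below, which 19.3% and 14.8% of all genes showed. With each array centred on its median, 1 was called higher and 9 lower, and within the high array set 2 were higher and 9 lower.

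Of the 9 genes that fell with age in wt, 4 were the antiviral effectors Isg20, Rsad2, Cmpk2 and Ifit1. Isg20 fell furthest, with the wt values given above of 2741 to 5144 at 4 months and 9295 to 12069 at 1 month, a log2 difference of -1.615 (SE 0.21, adjusted p 4.87e-05). Rsad2 was lower by -1.44 (SE 0.21, adjusted p 0.000206) on that probe set and by -1.51 and -1.33 on the others. Cmpk2 measured 449, 524 and 506 in wt at 4 months, against 1047, 1445 and 1444 in wt at 1 month (-1.34, SE 0.18, adjusted p 8e-05). Ifit1 measured 472, 278 and 229 in wt at 4 months, against 728, 1096 and 553 in wt at 1 month (-1.205, SE 0.27, adjusted p 0.00532). The ages did not overlap in any of these genes.

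Usp18 measured 849, 670 and 630 in wt at 4 months, against 1487, 1657 and 1388 in wt at 1 month (-1.05, SE 0.15, adjusted p 0.00017). Eif2ak2 measured 383, 429 and 474 in wt at 4 months, against 766, 719 and 953 in wt at 1 month (-0.87, SE 0.18, adjusted p 0.00297). Herc6 was lower by -0.705 (SE 0.16, adjusted p 0.0065) and Ifi27 by -0.69 (SE 0.14, adjusted p 0.00317), each without overlap. These calls held when each mouse was left out. Ifih1 was lower by -0.63 (SE 0.22, adjusted p 0.0492), with 1670, 1804 and 1405 in wt at 4 months, against 3175, 3317 and 1528 in wt at 1 month. Its ages overlapped at replicate 3 of wt at 1 month, and its call was lost in 5 of the 6 fits that left out a mouse, all but the one without that mouse.

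Bst2, Stat2 and Tap1 rose with age in wt. Bst2 measured 785, 843 and 1179 in wt at 4 months, against 389, 476 and 536 in wt at 1 month (0.94, SE 0.20, adjusted p 0.00321). Stat2 measured 539, 824 and 896 in wt at 4 months, against 424, 384 and 564 in wt at 1 month (0.67, SE 0.20, adjusted p 0.0285). Tap1 measured 1929, 1586 and 1313 in wt at 4 months, against 966, 1114 and 1218 in wt at 1 month (0.53, SE 0.16, adjusted p 0.0298). On the probe sets that stood for them Stat2 overlapped between the ages, whereas Bst2 and Tap1 did not. The Stat2 call there was lost without replicate 2 or 3 of wt at 4 months or replicate 1 or 2 of wt at 1 month, with adjusted p up to 0.113. The Tap1 call there was lost without replicate 1 or 2 of either age, with adjusted p up to 0.122. On a further Stat2 probe set the wt ages did not overlap, with 446, 459 and 391 at 4 months, against 167, 225 and 360 at 1 month. On a further Tap1 probe set they overlapped at low signal, with 13.8, 84.3 and 126 at 4 months, against 11.4, 9.39 and 61.1 at 1 month.

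**Figure D5:**
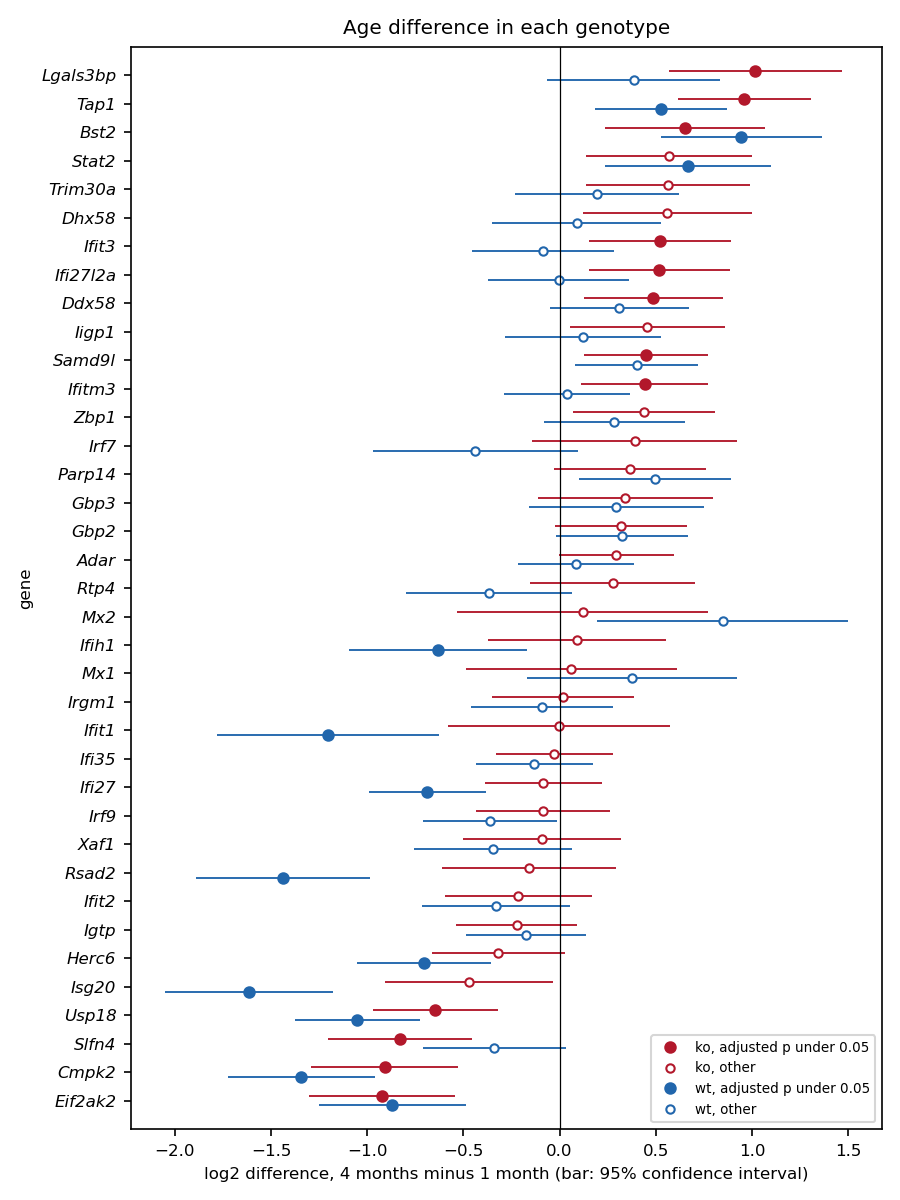
Log2 difference, 4 months minus 1 month, of each of the 37 genes (points) with its 95% confidence interval (bars), in ko spleens in red and in wt spleens in blue, ordered by the difference in ko. Filled points passed an adjusted p under 0.05, and Isg20, Rsad2 and Ifit1 are filled in wt and open in ko, though the difference between the genotypes itself was not called on these probe sets.

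In ko spleens 12 of the 37 were also called with age, 8 higher and 4 lower at 4 months. Over all genes 15.7% were called higher and 10.9% lower. The median of the 37 was 0.28, against 0.09 over all genes. It was 0.10 without ko at 4 months replicate 1, against 0.08 over all genes, 0.14 without ko at 4 months replicate 2, against 0.11, and 0.12 without ko at 1 month replicate 3, against 0.08. At 4 months 15 genes lay wholly above their 1 month values and 5 wholly below, which 30.0% and 20.4% of all genes showed. Centring each array on its median gave 2 higher and 5 lower in place of 8 and 4, and a median of 0.13 against -0.06 over all genes. The count fell to 6 without ko at 4 months replicate 1, ko at 4 months replicate 3 or ko at 1 month replicate 3, with 2 higher and 4 lower in each of these fits, and was 8 without ko at 1 month replicate 1. All 3 ko arrays at 1 month are in the low array set, and 2 of the 3 at 4 months in the high set. With the array set as a block, 5 were called higher and 6 lower.

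Lgals3bp and Tap1 rose most in ko. Lgals3bp measured 3108, 1878 and 2276 in ko at 4 months, against 970, 1066 and 1482 in ko at 1 month (1.02, SE 0.21, adjusted p 0.00293). Tap1 measured 1995, 1645 and 2067 in ko at 4 months, against 932, 1069 and 879 in ko at 1 month (0.96, SE 0.16, adjusted p 0.00074). The ages did not overlap for either gene, and both calls held when each mouse was left out. Bst2 measured 625, 599 and 691 in ko at 4 months, against 364, 520 and 322 in ko at 1 month (0.65, SE 0.20, adjusted p 0.0256). Ifit3, Ifi27l2a, Ddx58, Samd9l and Ifitm3 also rose, by 0.52, 0.52, 0.49, 0.45 and 0.44, with adjusted p of 0.0405 to 0.0497. With the array set as a block Ifit3, Ifi27l2a, Ddx58 and Samd9l lost their calls, with adjusted p of 0.112 to 0.201. The calls of Bst2 and of these 5 genes were each lost without ko at 4 months replicate 1, ko at 4 months replicate 3 or ko at 1 month replicate 3.

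Eif2ak2, Cmpk2, Slfn4 and Usp18 fell with age in ko. Eif2ak2 measured 414, 684 and 485 in ko at 4 months, against 952, 1043 and 1031 in ko at 1 month (-0.92, SE 0.18, adjusted p 0.00192). Cmpk2 measured 624, 982 and 773 in ko at 4 months, against 1319, 1707 and 1478 in ko at 1 month (-0.91, SE 0.18, adjusted p 0.00213). Usp18 measured 1067, 1092 and 1101 in ko at 4 months, against 1475, 2013 and 1707 in ko at 1 month (-0.65, SE 0.15, adjusted p 0.00666). Slfn4, with the ko values given above, was lower by -0.83 (SE 0.18, adjusted p 0.00336). No value at 4 months reached the 1 month range in these 4 genes on the probe sets that stood for them. Their calls there held when each mouse was left out. On a further Cmpk2 probe set the ko ages overlapped, with 683, 431 and 616 at 4 months, against 664, 620 and 634 at 1 month. They also overlapped on a further Eif2ak2 probe set, with 250, 221 and 270 at 4 months, against 205, 323 and 319 at 1 month. On the remaining Eif2ak2 probe set they did not, with 259, 306 and 280 at 4 months, against 397, 442 and 443 at 1 month. Isg20 and Rsad2 were not called with age in ko, at -0.47 (95% confidence interval -0.91 to -0.03, adjusted p 0.114) and -0.16 (-0.61 to 0.29, adjusted p 0.644).

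The rest of the interferon pathway was read from lists of ligands, receptors with Janus kinase and Stat signalling, induction pathways and other interferon-stimulated genes. Of 19 interferon genes 10 had a probe set and only Ifnz passed the filter, with no call in any comparison. Among 17 receptor and signalling genes tested, limma called 0 between the genotypes at 4 months, at 1 month or over both ages. At an unadjusted p under 0.05, 1 was higher and 1 lower at 4 months, 0 and 1 at 1 month, and 1 and 2 over both ages. Of all genes 10.6% were higher and 6.13% lower at 4 months, 7.47% and 9.41% at 1 month, and 13.0% and 11.1% over both ages. Among 18 genes of the induction pathways 0 were called at either age. At an unadjusted p under 0.05, 0 were higher and 1 lower at 4 months, and 1 and 1 at 1 month, against the same shares of all genes. Among 66 other interferon-stimulated genes 0 were called at 4 months, with 13 higher and 4 lower at an unadjusted p under 0.05, against 10.6% and 6.13% of all genes. At 1 month 0 were called, with 3 higher and 9 lower at an unadjusted p under 0.05, against 7.47% and 9.41% of all genes. Their median log2 difference at 4 months was 0.02, as it was over all genes.

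Over both ages 4 genes of these lists were called. These were 1 of 18 induction genes, which was higher, and 1 higher and 2 lower of 66 other interferon-stimulated genes. Over all genes 3.89% were called higher and 2.45% lower. Cgas, the cytosolic DNA sensor, measured 411, 381 and 415 in ko at 4 months, against 304, 328 and 280 in wt at 4 months, and 503, 564 and 469 in ko at 1 month, against 351, 438 and 275 in wt at 1 month. Every ko mouse was above the wt mice of its age (0.44, SE 0.12, adjusted p 0.0499). Sp100, a nuclear body protein, was lower in ko (-0.42, SE 0.10, adjusted p 0.0265), as was the coactivator Helz2 (-0.38, SE 0.10, adjusted p 0.039). Xdh, xanthine dehydrogenase, was higher (0.72, SE 0.20, adjusted p 0.048).

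With age, the receptor and signalling list ran upward in both genotypes. In ko 11 of 17 were called higher and 0 lower, against 15.7% and 10.9% of all genes, and in wt 9 were called higher and 1 lower, against 12.6% and 11.5%. Il10rb, a shared chain of the type III interferon receptor, rose by 0.95 in ko (SE 0.13, adjusted p 0.000204) and by 0.88 in wt (SE 0.13, adjusted p 0.000218). Ifngr2, a chain of the interferon gamma receptor, rose by 0.88 in ko (SE 0.20, adjusted p 0.00585) and by 1.02 in wt (SE 0.20, adjusted p 0.00244). Of the induction genes 6 of 18 rose in ko and 7 in wt, among them Irf5, by 0.89 and 0.97, and Irf8, by 0.65 and 0.70.

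The other interferon-stimulated genes were also mostly higher at 4 months, with 27 of 66 called higher and 3 lower in ko, against 15.7% and 10.9% of all genes, and 16 higher and 2 lower in wt, against 12.6% and 11.5%. Psmb8 and Psmb9, subunits of the immunoproteasome, rose in ko by 0.82 and 0.76, with adjusted p of 0.00105 and 0.00082. Irgm2, a GTPase, fell at 4 months, with a log2 difference of -0.95 in ko (adjusted p 0.000643) and -0.91 in wt (adjusted p 0.000719). Lymphocyte markers rose with age in the same spleens. Of 9 B cell markers 8 were called higher at 4 months in each genotype, with a summed signal of 44558 to 56469 in ko at 4 months and 24263 to 28221 in ko at 1 month, and of 53661 to 63403 in wt at 4 months and 33952 to 36714 in wt at 1 month. Red cell precursor markers fell, with 8 of 8 tested called lower at 4 months in wt and 5 of 8 in ko. The part of cell composition in the age differences was not tested.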

How the data were processed

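Total RNA from 12 spleens was hybridised to Affymetrix 3' arrays. The deposited table holds linear signal intensity for each probe set, made with MAS5 per the submitters' processing notes, which give no version. Its arrays already shared a 2% trimmed mean of 500, and this scaling was repeated. An offset of 32 was added and log2 taken. Of 45101 probe sets, 64 controls were removed, and the 27041 that reached a signal of 100 in 3 or more of the 12 arrays were tested. Gene symbols came from the platform annotation, in which 34958 probe sets had 1 symbol, 932 several and 9211 none. The 37 genes had 65 probe sets, 62 of them tested.

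A model with 4 group means was fitted with limma 3.58.1 in R 4.3.3 (lmFit, and eBayes with an intensity trend), with 8 residual and 8.27 prior degrees of freedom. The 6 contrasts were ko against wt at 4 months, at 1 month and over both ages, the change of this difference with age, and age within each genotype. Tests were 2-sided, with Benjamini-Hochberg adjustment over all probe sets tested. The test was checked on simulated data. Confidence intervals are 95%. Precision is limited by the number of arrays. Genes given with full values were those called in any contrast on any probe set, and the 3 with the highest and the 3 with the lowest difference in each genotype contrast by age and each age contrast. From the pathway lists up to 4 called genes per contrast were eligible. By the naming rule, promoters were printed for genes called between the genotypes, and for the gene with the highest mean, where an ISRE core match was found. Those of Ifit1, Ifit3, Stat2 and Bst2, which were called with age, were added after their values were seen. Irf9 and Rtp4, given with values by mouse, fall outside this rule and were chosen after their values were seen. Further genes are named to account for every member. The genes and lists were chosen with earlier results of these data known. Alternatives were quantile normalization, median centring, an offset of 8 or 64, a filter at 200 or none, no trend in eBayes, array weights, an adjusted p under 0.10, any probe set of a gene, only the arrays compared, a replicate block, an array set block and leaving out each mouse. Fits within each array set were added after the data were seen.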

Additional observations from a re-analysis of the deposited data

Results flagged for a closer look

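On probe set 1421008_at of Rsad2, the genotype difference at 4 months exceeded that at 1 month by 1.465 on the log2 scale (SE 0.23, adjusted p 0.0278 by limma). The test of the difference between the ages picked it out. The genotype difference there was 1.21 at 4 months (adjusted p 0.00104) and -0.26 at 1 month (adjusted p 0.456). The 3 ko mice were above the 3 wt mice at 4 months, and the genotypes overlapped at 1 month. On the other probe sets of Rsad2 the difference between the ages was 1.28 (adjusted p 0.218) and 1.01 (adjusted p 0.25).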

How the results depend on the processing

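All counts here are of the 37 genes, and the number of arrays limits each of them. The 3 calls of ko against wt at 4 months became 6 with array weights, 6 with the array set as a block, 5 with the replicate block and 7 at an adjusted p under 0.10, and 2 to 3 when each mouse was left out. The 1 call at 1 month became 2 at an adjusted p under 0.10, and 1 to 6 when each mouse was left out. The 5 calls over both ages became 2 without a filter, 2 with eBayes without a trend and 8 at an adjusted p under 0.10, and 1 to 8 when each mouse was left out. The 0 calls of the difference between the ages became 1 when any probe set of a gene counted, and 0 to 2 when each mouse was left out. The 12 calls with age in ko became 7 with each array centred on its median, 7 without a filter, 7 with eBayes without a trend and 19 with array weights, and 6 to 11 when each mouse was left out. The 12 calls with age in wt became 9 to 15 when each mouse was left out. Fits with fewer arrays or at a looser threshold differ by construction, and for the rest the cause was not tested. The shares of all genes called under these alternatives are not given here, so a changed count does not show a change particular to the listed genes. Rsad2 at 1 month reversed within the low array set, at 0.10. Of single-gene values under the alternatives, 637 kept their direction and side of the threshold, 152 lost the call, 7 gained one and 1 reversed. In the low set only ko at 1 month has more than 1 array, so tests there assume that the other groups vary as that one does. Counts of calls within the low set are therefore not given, though its single-gene values are among those counted above. No ko array at 1 month is in the high set, so the comparisons that need one could not be fitted there, and a filter on a signal of at least 200 in 3 arrays left no value for Mx2. The replicate numbers do not pair the mice: deviations of same-numbered mice correlated between -0.201 and 0.211.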
